A study of Mus musculus with 21 samples.

Results

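Cytochrome P450 genes of families 1 to 4 were examined by RNA-seq in testis germ cells of 12-dpp B6 (C57BL/6J) males, obtained by enrichment. Genes were taken by symbol, as Cyp followed by 1 to 4, a letter and a number, which gave 83 of the 37620 genes in the table. They fell into 21 subfamilies, named by the letter after the family number, and 7 of them carried symbols ending in -ps, the mark of a pseudogene. There were 12 libraries, 3 for each of the sample numbers 186wt, 343wt, 444wt and 456wt. All 12 were labelled as spermatocytes of the same strain and age, with no treatment, and the cells were freed with collagenase and trypsin. Libraries of 1 number were averaged first, and each mean ± SD is over the 4 numbers. Values are FPKM, the fragments per kilobase of transcript scaled to the mapped fragments of the library, so levels can be compared between genes of different length.

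P450 enzymes of families 1 to 4 are heme proteins, found mainly in the endoplasmic reticulum, that insert 1 oxygen atom into a substrate, with electrons passed on by the reductase Por and, for some reactions, by cytochrome b5. Families 1 to 3 hold the main drug-metabolising enzymes of the liver as well as enzymes of steroid, retinoid and fatty acid turnover, and family 4 holds fatty acid and eicosanoid hydroxylases. Many are switched on in liver by receptors for foreign compounds, namely Ahr for Cyp1 genes, Nr1i3 (CAR) for Cyp2b, Nr1i2 (PXR) for Cyp3a and Ppara for Cyp4a.

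The libraries held an estimated 12.9 to 17.9 M (mega) fragments each and 181.6 M in all. The estimate came from the steps between low FPKM values. For a member of the median transcript length, 1871 bp, 0.1 FPKM corresponded to 32.9 fragments over all 12 libraries. The markers of meiotic germ cells (Sycp1, Sycp3, Dmc1, Stra8, Smc1b) and of spermatogonia were at or above 0.1 FPKM in 10 of 10 genes found. So were 8 of 8 Sertoli cell markers, whose summed level was 2331 to 4169 FPKM per sample number. The sums were 245 to 409 FPKM for the meiotic and 519 to 698 FPKM for the spermatogonia markers. These lists differ in length, and Clu alone gave the Sertoli list 1844 FPKM on average. The median gene was at 87.8 FPKM in the Sertoli, 52.0 FPKM in the meiotic and 45.2 FPKM in the spermatogonia list. Transcripts of somatic marker genes were thus measured beside those of the labelled spermatocytes. In such bulk samples fewer cells of a type and less RNA per cell cannot be told apart.

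Most family 1 to 4 genes were near or at 0. Of the 83 genes, 22 (26.5%) had a mean of at least 0.1 FPKM, against 55.3% of all genes and 74.2% of protein-coding genes. At or above 1 FPKM were 10 members (12.0%), against 38.1% of all genes and 58.7% of protein-coding genes. A further 28 members were above 0 and below 0.1 FPKM, and 33 (39.8%) were listed at 0 in every one of the 12 libraries. The median member was at 0.00833 FPKM, against 0.195 FPKM for the median of all genes. The 4 sample numbers taken alone gave 23, 22, 24 and 23 members at or above 0.1 FPKM. The members together summed to 50.5 ± 2.42 FPKM (SD, n = 4), and the highest 5 members held 73.8% of it. The P450 genes of the other families were more often above the level used here, with 16 of 21 at or above 0.1 FPKM (76.2%), and among glutathione, glucuronide and sulfate transferases it was 28 of 59 (47.5%).

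The families differed in how many of their genes were at or above 0.1 FPKM. Family 1, which metabolises aromatic hydrocarbons and oestrogens, had 2 of 3 genes at or above 0.1 FPKM and summed to 4.33 ± 1.07 FPKM. Family 2 had 11 of 50 and summed to 22.1 ± 2.47 FPKM. Family 4 had 9 of 21 and summed to 24.1 ± 0.821 FPKM. Family 3, whose only subfamily Cyp3a holds the major drug-oxidising enzymes of liver and gut, had 0 of 9 and summed to 0.0458 ± 0.0489 FPKM.

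By subfamily, Cyp4f was the highest with a sum of 21.0 ± 0.726 FPKM (SD, n = 4) and 20.4 to 22.01 FPKM in the single numbers. Cyp2s followed with 10.2 ± 2.69 FPKM and a range of 6.99 to 12.5 FPKM, which did not reach the lowest Cyp4f value. Cyp2d (5.22 ± 0.787 FPKM, range 4.56 to 6.30 FPKM) lay below every Cyp2s value. Cyp1b (4.02 ± 1.12 FPKM) overlapped Cyp2d in its range of 3.17 to 5.65 FPKM. Cyp2j, Cyp2r, Cyp4x and Cyp4v followed at 2.28, 1.91, 1.83 and 1.19 FPKM, and the ranges of Cyp2j, Cyp2r and Cyp4x overlapped. All 8 of these had a member at or above 1 FPKM. In Cyp2u (0.888 FPKM), Cyp2c (0.661 ± 0.328 FPKM), Cyp2e (0.419 FPKM), Cyp1a (0.304 FPKM) and Cyp2t (0.222 FPKM) the highest member was between 0.1 and 1 FPKM. The other 8 subfamilies had no member at 0.1 FPKM.

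**Figure D1:**
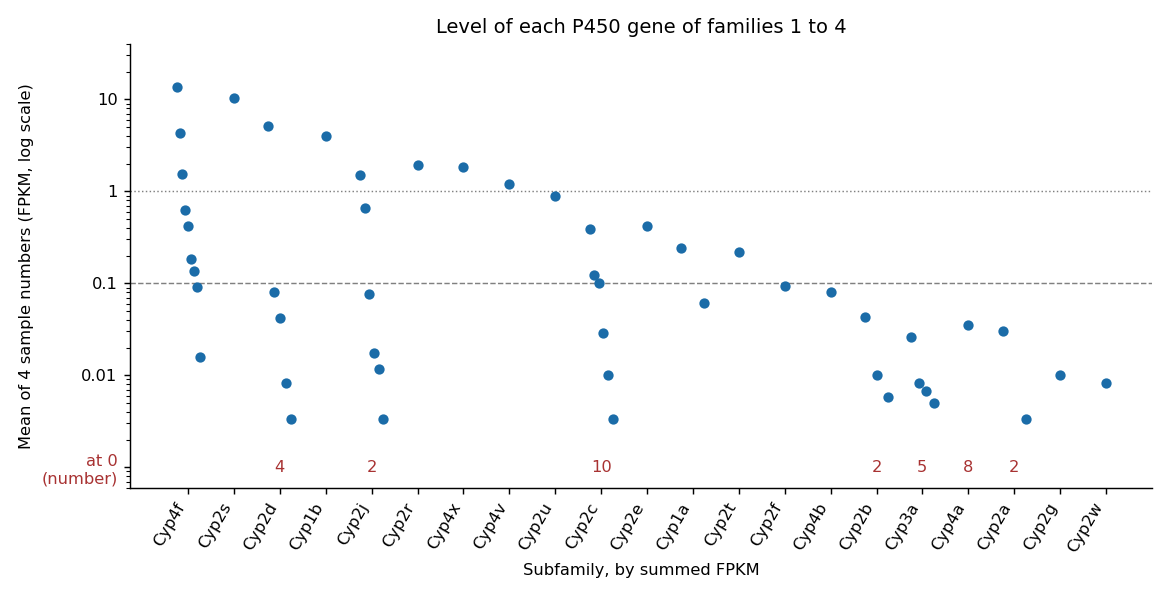
Mean level of each of the 83 genes over the 4 sample numbers (FPKM, log axis), with subfamilies ordered by their sum. Each point is 1 gene, red figures count genes listed at 0 in all 12 libraries, the dashed line is 0.1 FPKM and the dotted line 1 FPKM. Cyp4f has 7 of 9 genes above the dashed line, while Cyp2c has 10 of 16 and Cyp4a 8 of 9 genes at 0.

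The sum of a subfamily did not follow its number of genes. Cyp4f, with 9 genes, had the highest sum, while Cyp2c, with 16 genes the largest, had 3 genes at or above 0.1 FPKM and 10 at 0 in every library. Cyp2d held 9 genes, and a single one, Cyp2d22, made up 97.4% of the subfamily's sum. Cyp4a, the fatty acid ω-hydroxylases induced through Ppara in liver, had 8 of 9 genes at 0, and Cyp4a31 alone was above 0 with 0.035 ± 0.0145 FPKM. Of the 9 Cyp3a genes 5 were at 0, and the highest, Cyp3a25, reached 0.0258 ± 0.0301 FPKM with reads in 2 of 12 libraries. Cyp2b (induced through Nr1i3 in liver) was led by Cyp2b23 with 0.0425 ± 0.0142 FPKM, and Cyp2a, coumarin hydroxylases, by Cyp2a5 with 0.03 ± 0.0424 FPKM. The remaining subfamilies below the level had 1 gene each. These were Cyp2f2, the naphthalene-activating enzyme of lung (0.0942 ± 0.0458 FPKM), Cyp4b1 (0.0808 ± 0.0615 FPKM), the olfactory enzyme Cyp2g1 (0.01 ± 0.02 FPKM) and Cyp2w1 (0.00833 ± 0.00962 FPKM). Markers of hepatocytes, a cell type in which many of these genes are known to be high, summed to 0.25 to 0.43 FPKM per number. Only Apoa1 of those 5 was above 0.1 FPKM, and Alb was at 0.0608 ± 0.0247 FPKM. Of the olfactory and respiratory markers, 2 of 3 were above 0.1 FPKM and their sum was 1.32 to 1.83 FPKM.

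The level of 0.1 FPKM did not divide 2 separate groups of genes. Just above it lay Cyp2c44 with 0.101 ± 0.0820 FPKM and Cyp2c70 with 0.124 ± 0.0770 FPKM, and just below it Cyp2f2 with 0.0942 ± 0.0458 FPKM and Cyp4f18 with 0.0908 ± 0.0181 FPKM. Of the 61 members below it, 10 still had reads in 6 or more of the 12 libraries, and 7 had reads in a single library. For a gene at 0 of the median member length, a count of 0 allows up to 3 fragments over all libraries, which is 0.00912 FPKM. The largest such limit among the 32 members at 0 with an annotated length was 0.0117 FPKM. These limits cover counting error only.

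Part of the members are near-identical copies, and the authors' RSEM divides fragments among transcripts that match equally well. Of 82 members with annotated transcripts, 39 shared no stretch of 100 bases, the read length, with another member or any protein-coding transcript. Non-coding transcripts outside the members were not compared. Among the 22 members at or above 0.1 FPKM it was 17. The largest shared portion among the 22 was 9.80% of the 100-base stretches, of Cyp4f16, which shared 9.71% with Gm9705. Cyp4v3 shared 7.50% with Klkb1, which overlaps it on the same strand and was itself listed at 0. Among the 60 members below 0.1 FPKM the median was 1.34%. Of these, 14 shared over 10%, and Cyp3a41a and Cyp3a41b shared 90.8% and 88.2%. Of the 32 genes at 0 that have a sequence, 7 shared none. Gm17445 (0.476 FPKM) overlaps Cyp2s1 by 260 bp on the opposite strand, and Gm12835 (0.217 FPKM) overlaps Cyp4x1 by 450 bp. Egln2 (49.9967 FPKM) overlaps the much lower Cyp2t4 (0.222 FPKM) by 11 bp, and 4930534D22Rik (0.0233 FPKM) overlaps Cyp2u1 by 585 bp, both on the opposite strand. Without a stated strand setting the reads of such pairs cannot be told apart where they overlap. On the same strand, 7SK (0.203 FPKM) overlaps Cyp4f41-ps (0.184 FPKM) by 275 bp. How far reads of 7SK entered the level of Cyp4f41-ps was not tested.

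The genes at the top of the list were expressed in every library. Cyp4f13, of the subfamily that ω-hydroxylates leukotrienes and long-chain fatty acids, was the highest of the 83 with 13.6 ± 1.78 FPKM (SD, n = 4). It had FPKM of 15.09, 13.69 and 14.93 in the 186wt libraries, 15.28, 14.75 and 16.75 in 343wt, 12.25, 12.31 and 12.10 in 444wt and 13.83, 11.98 and 10.09 in 456wt. Its level exceeded that of 81.3% of all genes in the table. Cyp2s1, an enzyme of extrahepatic tissues that acts on retinoids and eicosanoids, had FPKM of 12.42, 12.91 and 11.94 in 186wt, 13.35, 12.37 and 11.75 in 343wt, 8.99, 9.13 and 9.12 in 444wt and 7.47, 6.18 and 7.32 in 456wt. Its libraries of 186wt and 343wt overlapped each other and stood above all of 444wt, which stood above all of 456wt. Cyp2d22, a mouse counterpart of the human drug-metabolising CYP2D6, had FPKM of 5.68, 6.01 and 6.66 in 186wt, 5.17, 5.02 and 5.26 in 343wt, 4.13, 4.76 and 4.63 in 444wt and 4.65, 4.26 and 4.85 in 456wt. All 186wt libraries were above all others, and 444wt and 456wt overlapped.

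Cyp4f16 and Cyp1b1 came next at 4.32 ± 1.05 and 4.02 ± 1.12 FPKM. Cyp4f16 had FPKM of 3.68, 3.31 and 3.05 in 186wt, 4.23, 2.93 and 3.29 in 343wt, 5.59, 4.45 and 5.72 in 444wt and 6.27, 4.09 and 5.26 in 456wt. Unlike Cyp4f13, it had higher means in 444wt and 456wt than in 186wt and 343wt, although 1 library of 343wt lay above the lowest of 456wt. Cyp1b1, the extrahepatic member of family 1 that hydroxylates oestradiol and retinol, had FPKM of 3.42, 3.58 and 3.41 in 186wt, 3.69, 3.75 and 3.92 in 343wt, 3.30, 3.35 and 2.87 in 444wt and 5.97, 5.33 and 5.66 in 456wt. The 456wt libraries did not overlap with any other. The other members at or above 1 FPKM were Cyp2r1, Cyp4x1, Cyp4f17, Cyp2j6 and Cyp4v3. Cyp2r1, a vitamin D 25-hydroxylase, had 1.91 ± 0.350 FPKM, Cyp4x1 1.83 ± 0.288 FPKM and Cyp4f17 1.56 ± 0.310 FPKM. Cyp2j6 had 1.52 ± 0.0716 FPKM and the fatty acid hydroxylase Cyp4v3 1.19 ± 0.164 FPKM. Below 1 FPKM, the highest of their subfamilies were Cyp2u1 (0.888 ± 0.233 FPKM), the ethanol-oxidising Cyp2e1 (0.419 ± 0.0667 FPKM), Cyp2c55 (0.393 ± 0.245 FPKM), Cyp1a2 (0.243 ± 0.0528 FPKM) and Cyp2t4 (0.222 ± 0.0767 FPKM).

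**Figure D2:**
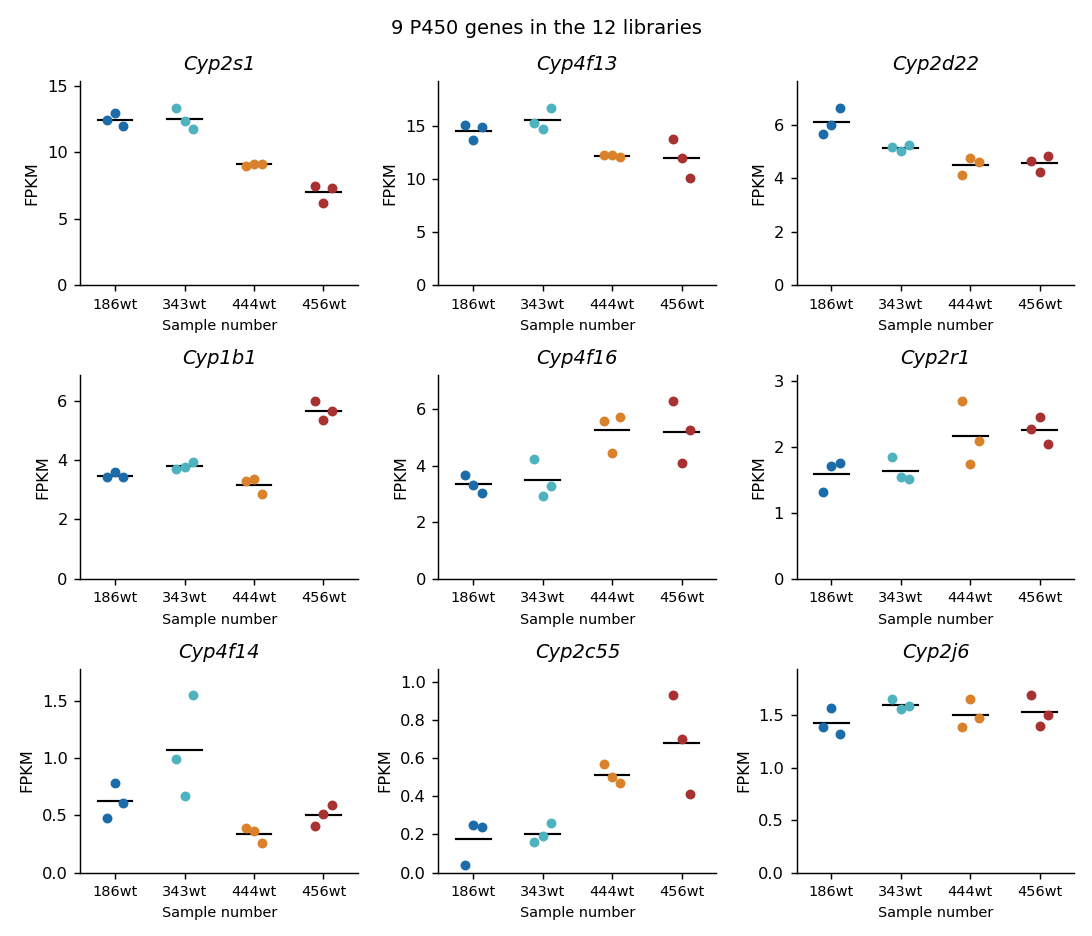
FPKM of 9 genes in the 12 libraries, with 1 point per library, a bar at the mean of the 3 libraries of a sample number and axes that start at 0. Cyp2s1 falls from 12.4 and 12.5 FPKM in 186wt and 343wt to 6.99 FPKM in 456wt, Cyp1b1 is highest in 456wt with 5.65 FPKM, and Cyp2j6 lies between 1.32 and 1.69 FPKM in all libraries.

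The design has no treatment, and the comparison it allows is between the 4 sample numbers, which asks how far the levels varied among samples of 1 kind. With limma's F-test on log2(FPKM + 0.1) and Benjamini-Hochberg adjustment over 20795 genes, 58.2% of all genes tested differed between the numbers at an adjusted p under 0.05. Of the 22 members tested, 13 (59.1%) did. Without the second library of 343wt it was 8 of 23 members (34.8%) against 55.3% of all genes, and with no filter on low values 12 of 83 (14.5%) against 28.6%. The median difference between the highest and the lowest number was 0.69 on the log2 scale for the members and 0.55 for all genes tested. The 2 sets were not matched for level, as 12 of the 22 members and 6447 of the 20795 genes were between 0.1 and 1 FPKM. The authors describe RNA from 4 replicates of germ cells, as many as the sample numbers. How the 3 libraries of a number were made is not said in the sources used here. If each number is 1 replicate, these p-values rest on the spread between libraries of 1 replicate, which may be technical. The called members had no common direction, since 3 were highest in 186wt, 3 in 343wt, 4 in 444wt and 3 in 456wt. In all 13, the 3 libraries of the highest number lay above the 3 of the lowest. The same count was not made over all called genes, so it adds nothing to the calls.

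Cyp2s1 and Cyp1b1 had the smallest p-values. The fitted level of Cyp2s1 was 0.83 ± 0.07 log2 units (SE) higher in 343wt than in 456wt (limma, adjusted p = 3.22e-06). Cyp1b1 was 0.82 ± 0.08 log2 units higher in 456wt than in 444wt (adjusted p = 1.52e-05). Cyp2d22 was 0.43 ± 0.08 log2 units higher in 186wt than in 444wt (adjusted p = 0.00224). The pair Cyp4f13 and Cyp4f16, 2 genes of 1 cluster, differed in opposite directions. Cyp4f13 was 0.39 ± 0.09 log2 units higher in 343wt than in 456wt (adjusted p = 0.00870), and Cyp4f16 was 0.63 ± 0.17 log2 units higher in 444wt than in 186wt (adjusted p = 0.00867). The sum of the Cyp4f genes hardly varied, with 20.4 FPKM in its lowest number (456wt) and 22.01 FPKM in its highest (343wt).

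Called differences above 1 on the log2 scale were found in 5 of the 22 members tested, against 10.5% of all genes tested, and all 5 members were of low level. The size of these differences followed the pseudocount. They were 1.18 to 1.55 log2 units with 0.1 FPKM, 1.51 to 3.52 with 0.01 FPKM and 0.22 to 0.61 with 1 FPKM. Cyp2c55, which forms eicosanoids from arachidonic acid, had FPKM of 0.04, 0.25 and 0.24 in 186wt, 0.16, 0.19 and 0.26 in 343wt, 0.57, 0.50 and 0.47 in 444wt and 0.93, 0.70 and 0.41 in 456wt. It was 1.55 ± 0.38 log2 units higher in 456wt than in 186wt (limma, adjusted p = 0.00930). Cyp4f14, a leukotriene B4 ω-hydroxylase, had FPKM of 0.99, 0.67 and 1.55 in 343wt against 0.39, 0.36 and 0.26 in 444wt, a difference of 1.36 ± 0.29 log2 units (adjusted p = 0.00991). Its values in 186wt (0.48, 0.78 and 0.61 FPKM) overlapped those of 343wt, and its values in 456wt (0.41, 0.51 and 0.59 FPKM) lay between 444wt and 343wt. Cyp2c70, a bile acid hydroxylase of liver, was lower in 343wt, where its libraries had 0, 0 and 0.03 FPKM, than in the other numbers, which had 0.09 to 0.21 FPKM (1.32 ± 0.33 log2 units between 186wt and 343wt, adjusted p = 0.0120). Without the first or the second library of 343wt its adjusted p was 0.0505 and 0.0508. Cyp2c44 was also low in 343wt, with 0, 0.03 and 0.03 FPKM against 0.20, 0.17 and 0.22 FPKM in 444wt (1.31 ± 0.37 log2 units, adjusted p = 0.0262). Its adjusted p was 0.0610 without the first library of 343wt and 0.0597 without the first of 444wt, and in 5 of the 12 such fits its mean fell under 0.1 FPKM and it was not tested. Cyp4f39, which acts on very long fatty acids, had 0.65, 0.74 and 0.65 FPKM in 444wt against 0.35, 0.35 and 0.10 FPKM in 186wt (1.18 ± 0.34 log2 units, adjusted p = 0.0397), and 8 of the 12 fits with 1 library left out gave an adjusted p over 0.05, up to 0.109 without the second library of 444wt. At these levels 1 library holds few fragments, since 0.1 FPKM on a transcript of 1 kb is 1.496 fragments in the median library.

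Of the other called members, Cyp4x1 was 0.47 ± 0.13 log2 units higher in 186wt than in 456wt (limma, adjusted p = 0.0212) and Cyp4f17 0.61 ± 0.16 log2 units higher in 444wt than in 343wt (adjusted p = 0.0214). The call of Cyp4x1 was lost without replicate 3 of 186wt or replicate 2 or 3 of 456wt (adjusted p = 0.0518 to 0.0601), and that of Cyp4f17 without the second library of 343wt (adjusted p = 0.0697). Cyp2r1 was 0.49 ± 0.17 log2 units higher in 456wt than in 186wt (adjusted p = 0.0485), a call that 10 of the 12 fits with 1 library left out did not keep (adjusted p up to 0.107, without the second library of 456wt). The 9 members past no threshold included Cyp2j6, with 1.32 to 1.69 FPKM over the 12 libraries and a difference of 0.16 ± 0.12 log2 units (adjusted p = 0.684), and Cyp4v3 (0.38 ± 0.14 log2 units, adjusted p = 0.0995). Cyp2e1 was at 0.35 to 0.51 FPKM in 11 libraries and at 0.10 FPKM in replicate 3 of 456wt.

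The marker sums of other cell types also differed between the numbers, and their orders are given beside those of the members. Beside the counts of called markers, 58.2% of all genes tested were called. In the fit of genes from a mean of 1 FPKM it was 77.6%. The Sertoli cell markers had sums of 4030, 4169, 2331 and 2502 FPKM in 186wt, 343wt, 444wt and 456wt, and 8 of 8 were called. Cyp2s1 and Cyp4f13, like these markers, were higher in 186wt and 343wt. The spermatogonia markers summed to 519, 534, 698 and 634 FPKM in the same order of numbers, with 5 of 5 called. Cyp4f16, Cyp4f17, Cyp2r1 and Cyp2c55, like these, were higher in 444wt and 456wt. The meiotic markers summed to 263, 245, 409 and 265 FPKM, again with 5 of 5 called. The myoid markers (482, 228, 612 and 979 FPKM, 4 of 4 called) and the endothelial markers (14.3, 19.3, 12.1 and 29.9 FPKM, 4 of 4 called) were highest in 456wt, the number in which Cyp1b1 was highest. The Leydig cell markers (56.5, 110.5, 16.1 and 60.9 FPKM, 6 of 6 called) were highest in 343wt and lowest in 444wt, as was Cyp4f14. The macrophage markers (5.07, 12.1, 3.41 and 9.85 FPKM, 3 of 4 called) were likewise highest in 343wt. In its full order over the 4 numbers, Cyp1b1 matched the endothelial sum and not the myoid sum. Cyp4f14 matched the Sertoli sum and not the Leydig sum. These likenesses are over 4 points and were picked after the values were seen. The part of cell composition in the differences was not tested.

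**Figure D3:**
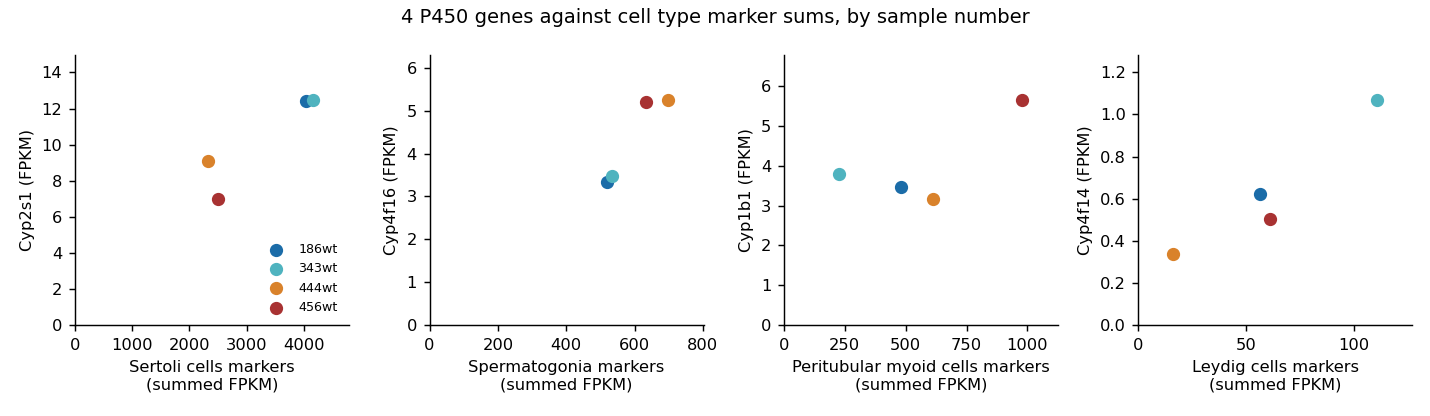
FPKM of 4 P450 genes (y axes) against the summed FPKM of a list of cell type markers (x axes), with 1 point per sample number. Pairs were chosen after the values were seen: Cyp2s1 and the Sertoli sum are both higher in 186wt and 343wt, Cyp4f16 and the spermatogonia sum both in 444wt and 456wt, Cyp1b1 and the myoid sum are both highest in 456wt, and Cyp4f14 and the Leydig sum both in 343wt. In full order, Cyp1b1 matches the endothelial sum and Cyp4f14 the Sertoli sum, pairs that are not drawn.

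Most partner genes of the P450 system were measured above 0.1 FPKM, as were 74.2% of all protein-coding genes. Of the electron donors, 4 of 5 found were at or above 0.1 FPKM. The reductase Por, which serves all microsomal P450 enzymes, had 43.7 ± 3.13 FPKM, Cyb5r3 was the highest with 63.9 ± 4.65 FPKM, and Cyb5r2 was below the level with 0.0742 ± 0.0551 FPKM. All 11 genes of heme synthesis and breakdown were above it, led by Alad (96.2 ± 9.74 FPKM), the second enzyme of heme synthesis. Of the receptors that control P450 genes, 11 of 13 were above it with a median of 1.13 FPKM for the list (3.01 FPKM for all protein-coding genes), led by the general dimer partner Rxrb with 49.6 ± 2.03 FPKM. The 2 below were the drug receptor Nr1i2 (0.0258 ± 0.0129 FPKM) and the liver factor Hnf4a (0.0217 ± 0.0104 FPKM). Nr1i3 had 0.218 ± 0.0708 FPKM, Ppara 1.13 ± 0.305 FPKM, Ahr 2.85 ± 0.261 FPKM and its partner Arnt 31.6 ± 3.06 FPKM. All 4 epoxide hydrolases and other partners were above it, led by the heme-binding Pgrmc1 (108.8 ± 11.9 FPKM). Between the sample numbers, 4 of 4 electron donors tested, 6 of 11 heme genes, 6 of 11 receptors and 3 of 4 other partners were called, beside the 58.2% of all genes. For Por the difference was 0.20 log2 units between 456wt and 343wt (limma, adjusted p = 0.0316), and for Pgrmc1 0.39 log2 units between 343wt and 444wt (adjusted p = 6.37e-07). The called heme genes were highest in 343wt in 4 cases and in 444wt in 2.

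On NCBI build 37, 82 of the 83 genes had an annotated position. Neighbouring members with starts less than 1 Mb apart formed 8 clusters of at least 2 genes, which held 73 members. Of these, 16 were at or above 0.1 FPKM. Of the 9 members outside clusters it was 6, and 3 of them (Cyp1b1, Cyp2r1 and Cyp4v3) were at or above 1 FPKM. The Cyp4f cluster on chromosome 17 from 32605404 to 33102645 stood out by its count, with 7 of 8 members at or above 0.1 FPKM. It also held 5 other protein-coding genes, of which 4 zinc finger genes were at or above 0.1 FPKM. The Cyp3a cluster on chromosome 5 from 146106148 to 146924861 had 0 of 8.

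In 4 of the 7 clusters with at least 3 genes, the members at or above 0.1 FPKM were the first or the last of the row. In the Cyp2c cluster on chromosome 19 from 39081509 to 40261823 the first of 14 genes, Cyp2c55 (0.393 FPKM), and the last, Cyp2c70 (0.124 FPKM), were above the level. The highest of the 12 between them had 0.0292 FPKM. The protein-coding genes next to the cluster were Hells with 128.7 FPKM at a distance of 36.0 kb and Pdlim1 with 14.4 FPKM at 34.9 kb. In the cluster of Cyp2a, Cyp2b, Cyp2f, Cyp2g, Cyp2s and Cyp2t genes on chromosome 7 from 26587494 to 27943687, the first of 13 genes was Cyp2s1 (10.2 FPKM) and the last Cyp2t4 (0.222 FPKM), and the highest between them had 0.0942 FPKM. Its neighbours were Axl with 101.6 FPKM beside Cyp2s1 and Rab4b with 55.7 FPKM beside Cyp2t4. Egln2 overlaps the end of Cyp2t4 by 11 bp on the opposite strand. In the cluster of Cyp4a, Cyp4b and Cyp4x genes on chromosome 4 from 114778928 to 115320322 the first of 11 genes, Cyp4x1, had 1.83 FPKM and the highest inner gene 0.035 FPKM. Here the neighbour of Cyp4x1, Pdzk1ip1, had 0.209 FPKM, and 4732418C07Rik, beside the last gene Cyp4b1 (0.0808 FPKM), had 22.2 FPKM. In the Cyp2d cluster on chromosome 15 from 82200958 to 82624675 the first of 9, Cyp2d22, had 5.09 FPKM and the highest inner member 0.08 FPKM. The cluster also held 2 other protein-coding genes, of which 1 was at or above 1 FPKM. Its neighbours were Ndufa6 with 73.1 FPKM beside Cyp2d22 and Tcf20 with 14.8 FPKM beside the last gene, Cyp2d26 (0.0417 FPKM). These 4 clusters held 47 members, of which 6 were above the level. The Cyp2j cluster on chromosome 4 from 95694225 to 96330845 was different, since Cyp2j6 and Cyp2j9, the 2 of 8 above the level, were neighbours inside the row. This arrangement was noticed after the values were seen.

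**Figure D4:**
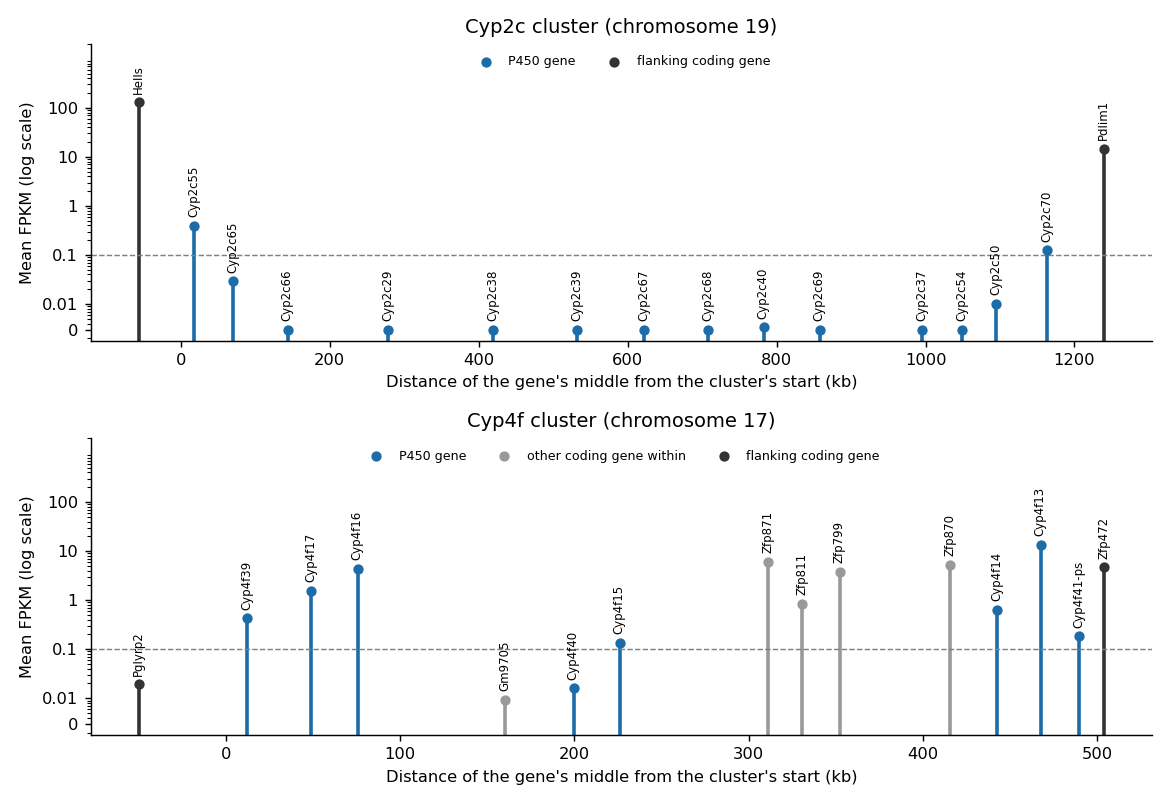
Mean FPKM (log axis, values under 0.003 drawn at 0) of genes along 2 clusters, by the distance of the gene's middle from the start of the first P450 gene in kb. Blue lines are P450 genes, grey lines other protein-coding genes within the cluster and dark lines the flanking protein-coding genes. In the Cyp2c cluster the outermost genes Cyp2c55 and Cyp2c70 alone are above the dashed line at 0.1 FPKM, while in the Cyp4f cluster 7 of 8 are.

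The sequence before the transcription start was compared for the 62 members that have an entry among RefSeq promoters (build GRCm38.p6). The 250 bases before the start were used, and each of the 62 was found once, without a mismatch, in NCBI build 37. CG dinucleotides are depleted in most of the mouse genome and kept in the CpG islands of broadly expressed genes. The members below 0.1 FPKM had a median of 1 CG (n = 46, range 0 to 5). Those between 0.1 and 1 FPKM had a median of 3 (n = 9), and those at or above 1 FPKM a median of 12 (n = 7, range 2 to 17). Among all genes with an entry the medians were 2 for those below 0.1 FPKM (n = 4327) and 16 for those at or above 1 FPKM (n = 9568), so the members followed the order of genes at large. At least 10 CG were found before 5 members, against 38.2% of all 27025 promoters, and all 5 were above 0.1 FPKM. They were Cyp4v3 (17), Cyp2r1 (16), Cyp2s1 (15), Cyp1b1 (12) and Cyp4f39 (10). The RefSeq start can differ from that annotated in build 37. The window of Cyp2s1 lies wholly within annotated exons, and that of Cyp4f39 ends 15736 bases before the annotated gene. In the 56 windows that end within 250 bases of the annotated start, a choice added after the data were seen, the medians were 7.5 (n = 6), 3 (n = 7) and 1 (n = 43) from the highest level to the lowest, and 3 members had at least 10 CG. A high level without many CG was seen for Cyp4f13 (3), Cyp4f16 (2) and Cyp2j6 (3).

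The motif TATAAA, the core of the TATA box, was present on either strand in 26 of 62 members (41.9%), against 13.0% of all promoters. It was in 22 of 46 members below 0.1 FPKM (47.8%, against 25.4% of all genes at that level), in 4 of 9 between 0.1 and 1 FPKM, and in 0 of 7 at or above 1 FPKM (against 5.96% of all genes there). On the gene's own strand, and beginning 25 to 40 bases before the start, it was in 10 of 62 members (16.1%) and 2.13% of all promoters. GCGTG, the core of the site bound by Ahr, was present on either strand in 12 of 62 members (19.4%) and in 28.2% of all promoters. At or above 1 FPKM it was in 3 of 7 members (42.9%, against 46.5% of all genes there), and below 0.1 FPKM in 6 of 46 (13.0%, against 11.6%). Between these levels it was in 3 of 9. TATAAA and GCGTG cannot overlap each other, while every GCGTG holds a CG. Members share ancestry and were matched by 6 letters or fewer, so these shares are a description.

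The 250 bases before the start of 6 members are shown, 5′ to 3′ on the gene's strand, with CG and TATAAA in capitals. Cyp1b1 (chr17:80114402-80114651, minus strand) and Cyp2r1 (chr7:121706487-121706736, minus strand) are CG-rich members above 1 FPKM. Cyp4f16 (chr17:32673252-32673501, plus strand) is a member above 1 FPKM with 2 CG. Cyp2c55 (chr19:39081259-39081508, plus strand, 0.393 FPKM) and Cyp1a1 (chr9:57545170-57545419, plus strand, 0.0617 ± 0.0431 FPKM), the classical target of Ahr, have TATAAA near the start. Cyp2c66 (chr19:39188138-39188387, plus strand), with 1 CG and TATAAA farther from the start, was at 0 in all libraries. None of these stretches overlaps an annotated exon of build 37, and each ends within 1 base of the annotated start.
Cyp1b1: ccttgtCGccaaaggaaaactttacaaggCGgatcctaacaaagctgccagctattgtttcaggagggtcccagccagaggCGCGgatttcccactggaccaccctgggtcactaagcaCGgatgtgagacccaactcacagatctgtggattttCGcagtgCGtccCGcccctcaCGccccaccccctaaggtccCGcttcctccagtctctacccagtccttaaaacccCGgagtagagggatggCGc
Cyp2r1: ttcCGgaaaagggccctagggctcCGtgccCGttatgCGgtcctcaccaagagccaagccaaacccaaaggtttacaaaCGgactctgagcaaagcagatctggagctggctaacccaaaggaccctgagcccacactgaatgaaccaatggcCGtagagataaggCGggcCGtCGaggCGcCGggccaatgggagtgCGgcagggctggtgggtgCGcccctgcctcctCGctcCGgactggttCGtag
Cyp4f16: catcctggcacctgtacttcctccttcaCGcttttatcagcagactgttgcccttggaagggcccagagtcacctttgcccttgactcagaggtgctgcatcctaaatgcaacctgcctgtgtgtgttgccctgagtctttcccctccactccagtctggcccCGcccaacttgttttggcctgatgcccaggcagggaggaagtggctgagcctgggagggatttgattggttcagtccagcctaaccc
Cyp2c55: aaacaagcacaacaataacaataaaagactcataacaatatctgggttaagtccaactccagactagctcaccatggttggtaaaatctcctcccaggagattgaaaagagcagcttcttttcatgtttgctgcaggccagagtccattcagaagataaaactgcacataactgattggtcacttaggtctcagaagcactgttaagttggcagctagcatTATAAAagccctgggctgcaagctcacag
Cyp1a1: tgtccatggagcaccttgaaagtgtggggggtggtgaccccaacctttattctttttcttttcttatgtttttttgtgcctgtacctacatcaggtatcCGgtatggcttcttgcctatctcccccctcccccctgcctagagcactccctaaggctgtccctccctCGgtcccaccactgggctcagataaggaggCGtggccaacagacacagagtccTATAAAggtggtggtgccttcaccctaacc
Cyp2c66: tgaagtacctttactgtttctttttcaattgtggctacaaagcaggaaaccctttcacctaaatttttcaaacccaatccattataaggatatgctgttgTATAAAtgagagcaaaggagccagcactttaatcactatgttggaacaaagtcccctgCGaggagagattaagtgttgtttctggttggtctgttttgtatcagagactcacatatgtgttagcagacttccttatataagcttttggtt

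Of the members at or above 0.1 FPKM, Cyp2d22, Cyp2u1, Cyp4x1, Cyp4f17, Cyp2c44 and Cyp4f41-ps had no entry.

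**Figure D5:**
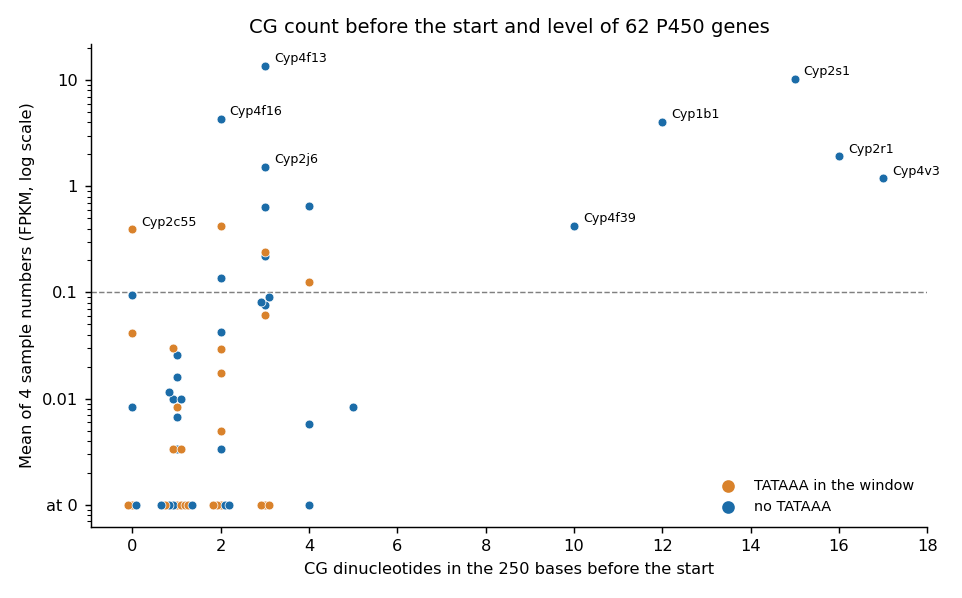
Mean FPKM (log axis, genes at 0 drawn in a row at the bottom) of the 62 P450 genes with a RefSeq promoter, against the number of CG dinucleotides in the 250 bases before the start. Orange points hold TATAAA on either strand, and points with the same value are spread sideways. All 5 genes with at least 10 CG lie above the dashed line at 0.1 FPKM (2 of them, Cyp2s1 and Cyp4f39, with windows away from the annotated start), and Cyp4f13 has the highest level with 3 CG.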

How the data were processed

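RNA-seq libraries of 12-dpp B6 germ cells were used, and the 9 samples of the other assays were not analysed here. Paired 100-bp reads were mapped by the authors against NCBI build 37 transcripts (Bowtie 0.12.9), who computed FPKM with RSEM 1.2.8, and the deposited FPKM are rounded to 2 decimals, with a column per library and genes at 0 included. RSEM divides fragments among near-identical transcripts, and a strand setting was not given in the sources used here. Library totals were 477629 to 485096 FPKM. Every column of values was used.

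A gene was counted as expressed from a mean of 0.1 FPKM over the 4 sample numbers. All 20795 such genes were fitted with limma 3.58.1 in R 4.3.3 (lmFit, eBayes with trend, F-test over the numbers) on log2(FPKM + 0.1), which understates changes of low genes, with Benjamini-Hochberg adjustment over all of them. The fit and the depth estimate were tested on simulated data. Depth was estimated from the steps between low FPKM values of 964 genes with a single transcript. Positions, exons and transcripts were taken from GENCODE M1 (37205 of 37620 identifiers matched). The 100-base stretches of each member's longest transcript were compared with all transcripts of other members and all protein-coding transcripts. The genes named were members from 1 FPKM, the highest of each subfamily, all called ones, those next to 0.1 FPKM, and of the partner genes the highest of each list and those below 0.1 FPKM. Partner genes added for the P450 subfamilies they control, and genes in clusters or promoter sets, were chosen after their values were seen. Members and gene lists were chosen with earlier results of these data known. Meiob and Adgre1 of the marker lists and Cyb5a of the electron donors had no row under those symbols. Alternatives were other pseudocounts, filters, scalings, a replicate block, and leaving out libraries or sample numbers. Python 3.11.15 with numpy 2.4.6, pandas 2.3.3 and matplotlib 3.10.9 was used.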

Additional observations from a re-analysis of the deposited data

Results flagged for a closer look

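In 4 of the 40 values compared, which were member levels and subfamily sums over the 4 sample numbers, 1 number stood apart from the other 3 by Dixon's test. Chance gives about 2.0 of 40, but the 4 are not independent tests, as given below for Cyp2g1 and Cyp4a31. Cyp2c70 had 0.01 FPKM in 343wt and 0.147 to 0.173 FPKM in the other numbers, and the 3 other numbers averaged 0.162 FPKM, against 0.124 FPKM over all 4. Cyp2g1 had 0.04 FPKM in 444wt, with 0.04 FPKM in each of its 3 libraries, and was listed at 0 in the other 9, so the ratio would be the same for any value above 0 and tests nothing. Cyp4a31 had 0.0567 FPKM in 456wt and 0.0267 to 0.03 FPKM in the others. It is the only Cyp4a gene above 0, so the Cyp4a sum of 0.0567 FPKM in 456wt is the same observation.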

How the results depend on the processing

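The 22 members at or above 0.1 FPKM became 50 when any mean above 0 FPKM was counted and 10 from 1 FPKM, and were 21 to 23 with 1 library or sample number left out. The 13 members that differed between numbers became 8 of 10 tested from a mean of 1 FPKM (77.6% of all genes), 11 with a pseudocount of 0.01 FPKM, and 6 to 12 with 1 library or number left out. The count fell most without the second library of 343wt (8, beside 55.3% of all genes) and without all of 343wt (6, beside 50.2%). With the highest gene alone, Cyp4f was at 13.6 FPKM and Cyp2j at 1.52 FPKM. Library numbers did not pair the samples, as seen in log2 values from which each sample number's gene means were subtracted. What remained correlated with r of -0.065 to 0.128 between same-numbered libraries of different sample numbers, and 1 of 18 pairs was over 0.1. Between differently numbered libraries r was -0.128 to 0.083. The fit with a replicate block called 11 members and lost Cyp2r1 (adjusted p = 0.0828) and Cyp4f39 (0.0680). Both were also lost with a pseudocount of 0.01 FPKM (0.0507 and 0.0596), and Cyp2r1 after rescaling to the same total (0.0572). No direction turned in the alternatives run for single members, which were both pseudocounts, the block, rescaling to the same total and single libraries left out (Cyp2c44 in 7 of 12). Of the called members, Cyp2s1, Cyp1b1, Cyp2d22, Cyp4f13, Cyp4f14, Cyp4f16 and Cyp2c55 kept their calls with any single library left out. Depth limits the statements on members below 0.1 FPKM.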
